A study of Drosophila melanogaster with 6 samples.

Results

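The cell cycle and DNA replication genes of Drosophila melanogaster embryos were followed in rib mutants, which lack normal function of ribbon, a BTB domain transcription factor required for the shaping of embryonic tubes such as the salivary gland and trachea. The set was a list of 43 genes covering cyclins, cyclin-dependent kinases, E2F and Rb factors, origin licensing, the MCM helicase, fork proteins and mitotic regulators. A gene counted as measured when a probe set of the array was annotated with its symbol and no other, and the brightest such probe set by mean over the 6 arrays was used. This gave 31 of the 43 genes, out of 11982 genes with a probe set of their own. CycA, stg, Cdk1, dap, Orc6, geminin, Mcm7, RnrS, polo, aurA and BubR1 are unnamed here, and E2f1 appeared only on a probe set listed with other genes, so these 12 genes were not analysed here. The control group was 3 collections of wild-type embryos (WT in the labels, Oregon R in the series design), and the mutant group was 3 collections of rib1/ribP7 embryos, which carry one rib allele on each homologous chromosome. Both groups were embryos of stages 11 to 16, collected for 8 h at room temperature, aged for 11 h and isolated with an embryo sorter. Total RNA of many whole embryos was pooled in each collection and hybridised to Affymetrix Drosophila Genome 2.0 arrays, so each value averages over all tissues and over the whole range of stages, and the nature of the rib1 and ribP7 lesions is not given in the sources used here.

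Cells copy their DNA once per cycle because origins are licensed before S phase by the origin recognition complex, Cdc6 and Cdt1, which load the MCM helicase, and are fired under cyclin-dependent kinases. Dimers of E2F and Dp drive transcription of many replication genes, and Rb family proteins hold them back until CycD and CycE kinases act. In mitosis B-type cyclins and Aurora kinases act first, and the anaphase-promoting complex with its activators Fzy and Fzr then destroys cyclins and securin. In the fly embryo the early nuclear divisions run on maternal products, most epidermal cells stop dividing after a few cycles that follow cellularization, and by the later stages division goes on mainly in the nervous system while several larval tissues switch to endocycles.

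Normalised log2 levels were compared with limma over all 18769 probe sets that are not array controls, with Benjamini-Hochberg adjustment and a threshold of 0.05, and differences are always rib mutant minus wild type. Of these probe sets 1664 passed (8.87%), 1040 of them higher in the mutants (5.54%) and 624 lower (3.32%). The rib probe set itself read higher in the mutants, with a log2 level of 13.06 ± 0.32 in wild type and 13.86 ± 0.08 in the mutants (SD, n = 3 each, adjusted p = 0.0390), and since the lesions are not described, this level does not check the labels. Array medians lay between 5.51 and 5.56, while the spiked hybridization controls averaged 10.38 to 10.78 on the wild-type arrays and 10.13 to 10.28 on the mutant arrays. If the arrays are instead scaled on those controls, every difference rises by 0.38 on the log2 scale, which turns small negative differences positive. Of 8 measured marker genes of whole-embryo tissues, vas, a germ cell gene, read 5.87 or less, near the array median, and the others read 6.84 or more on every array. None of the 8 passed limma's adjusted threshold, 1 had an unadjusted p under 0.05, and with replicate numbers as a block elav and fkh passed (adjusted p = 0.0387 and 0.0495).

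Across the 31 genes, transcripts leaned towards lower levels in rib mutants, but a single gene, PCNA, passed the test. This is 3.23% of the genes, below the 8.87% of all probe sets. The difference was below 0 in 24 of the 31 genes (77.4%), against 64.1% of all probe sets, and its median was -0.28, against -0.07 over all probe sets. With scaling on the hybridization controls 10 genes remained below 0 and the median was 0.10. By role and without that scaling, the difference was below 0 in 13 of 14 licensing, MCM and fork genes (92.9%). It was below 0 in 5 of 7 mitotic genes (71.4%) and 6 of the 10 others (60.0%), beside 64.1% of all probe sets. The medians of these groups of genes were -0.36, -0.32 and -0.11. The groups did not overlap for 11 genes, 9 lower and 2 higher in the mutants, which is 35.5% of the genes beside 35.3% of all probe sets (14.2% higher and 21.1% lower). An unadjusted p under 0.05 was reached by 11 genes (35.5%), against 25.5% of all probe sets. The series design calls target genes by a 1.5-fold change with p under 0.05. This cutoff on limma's unadjusted p took 8 genes (25.8%), against 13.0% of all probe sets (8.01% higher and 4.97% lower). Those genes were PCNA, Orc4, Orc5, Mcm2, Mcm5, aurB and fzy, lower in the mutants, and Orc1, higher. All probe sets include many dim ones, while all 31 genes had mean levels above the median of 5.55. The shares in this paragraph are therefore not matched for level. In bulk RNA of whole embryos, fewer dividing cells and less RNA per dividing cell cannot be told apart.

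**Figure D1:**
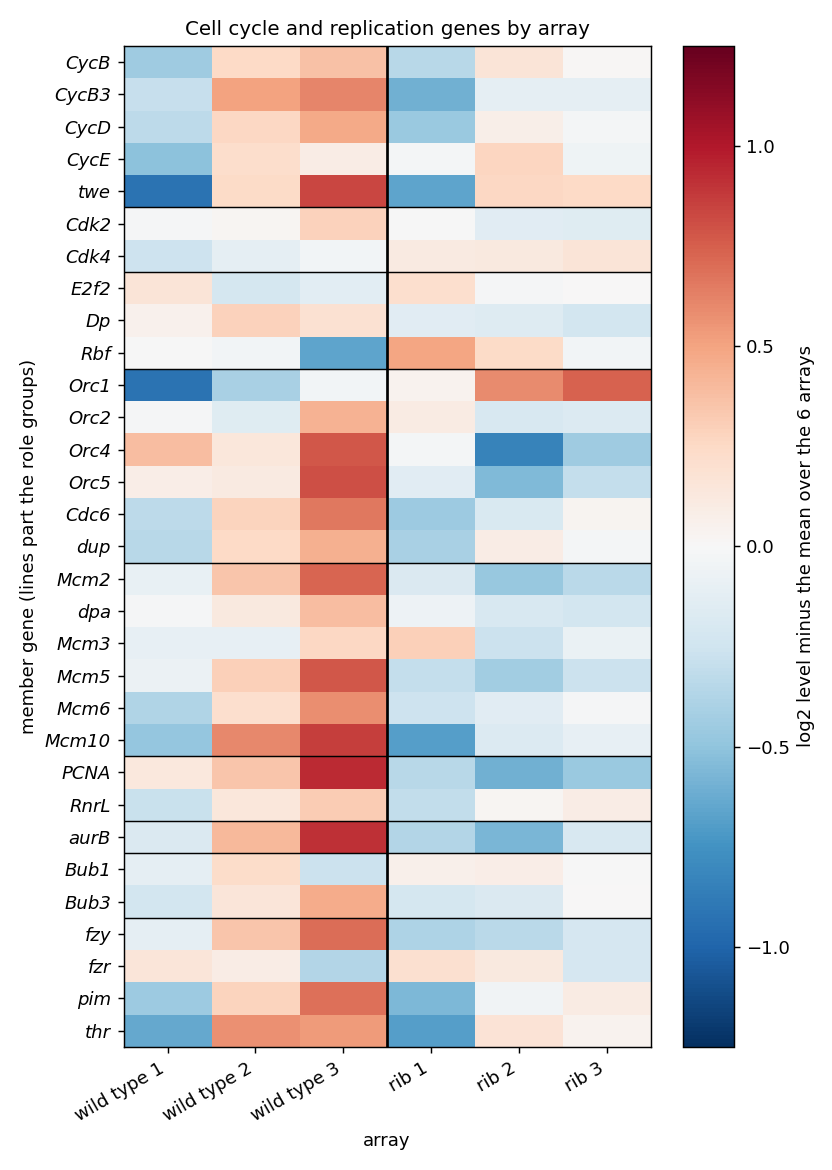
Level of each of the 31 genes (rows, grouped by role) on each of the 6 arrays (columns), as the log2 level minus the gene's mean over the arrays. Wild-type replicate 1 is the lowest wild-type array for 24 genes and wild-type replicate 3 the highest for 24, while the mutant arrays vary less.

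The same replicate number in both groups marked arrays that deviated together, so each comparison was also fitted with the number as a block. Of the 31 genes 17 were lower in the mutant of every pair and 5 were higher in every pair, against 34.8% and 22.0% of all probe sets. With the block 5 of the 31 genes passed (16.1%), against 14.6% of all probe sets (9.0% higher and 5.63% lower): PCNA, Orc4 and CycB3 lower and Orc1 and Rbf higher in the mutants. What the collections with one number shared is not stated in the labels.

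None of the 5 cyclin and phosphatase genes passed without the replicate block, and their groups overlapped. CycB3, which drives mitosis with Cdk1, read 10.75, 11.54 and 11.65 in wild type and 10.44, 10.93 and 10.92 in the mutants. The mutant values of replicates 2 and 3 lay above the lowest wild-type value, so the groups overlapped, yet each mutant array was below the wild-type array of its number, by 0.31, 0.61 and 0.73. The difference of -0.55 (SE 0.27) had an adjusted p of 0.260, and 0.0401 with the replicate block. CycB, the main B-type cyclin, differed by -0.11 (SE 0.25, adjusted p = 0.783). CycD, the G1 cyclin that binds Cdk4, read 9.56, 10.15 and 10.36 in wild type and 9.42, 9.96 and 9.86 in the mutants, overlapping groups with an adjusted p of 0.495. CycE, which starts S phase with Cdk2, differed by 0.13 (SE 0.21, adjusted p = 0.707). For twe, a Cdc25 phosphatase known for its role in meiosis and in the early divisions, the wild-type arrays alone ran from 7.77 to 9.53, and the group difference of -0.10 (SE 0.49, adjusted p = 0.902) had a 95% interval from -1.29 to 1.08.

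Cdk4 separated the groups by a small step. It read 9.67, 9.82 and 9.90 in wild type and 10.04, 10.06 and 10.09 in the mutants, so every mutant array lay above every wild-type array. The difference of 0.27 (SE 0.09) had an adjusted p of 0.116. Cdk2 read 9.08, 9.12 and 9.39 in wild type and 9.10, 8.96 and 8.95 in the mutants, overlapping groups with a difference of -0.19 (SE 0.11, adjusted p = 0.310).

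The E2F and Rb factors differed in sign, and none of the 3 passed without the block. Dp, the partner that E2F proteins need to bind DNA, read 9.91, 10.14 and 10.04 in wild type and 9.71, 9.69 and 9.62 in the mutants. The groups did not overlap, and the difference of -0.35 (SE 0.09) missed the threshold with an adjusted p of 0.0618. Scaling on the hybridization controls turned it to 0.03. Rbf, the main fly Rb protein, read 8.37, 8.35 and 7.73 in wild type and 8.87, 8.62 and 8.35 in the mutants. The lowest mutant array lay just below the upper wild-type arrays, and each mutant array was above the wild-type array of its number. The difference of 0.46 (SE 0.22) had an adjusted p of 0.248, and 0.0491 with the replicate block. E2f2, the repressing E2F, differed by 0.13 (SE 0.13, adjusted p = 0.546).

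The subunits of the origin recognition complex differed in sign. Orc1, an ATP-binding subunit whose amount is known to vary over the fly cell cycle, read 8.67, 9.19 and 9.56 in wild type and 9.63, 10.18 and 10.33 in the mutants. Every mutant array was above every wild-type array, and within the numbered pairs the mutants were higher by 0.97, 1.00 and 0.78. The difference of 0.91 (SE 0.28, 95% interval 0.24 to 1.59) was the largest increase among the 31 genes, with an adjusted p of 0.102 that became 0.0083 with the replicate block. Orc4 read 8.14, 7.89 and 8.53 in wild type and 7.73, 6.91 and 7.31 in the mutants, with no overlap. Its difference of -0.87 (SE 0.25, 95% interval -1.48 to -0.26) had an adjusted p of 0.0899, and 0.0379 with the block. Orc5 was lower on every mutant array, at 8.01, 7.60 and 7.86 against 8.24, 8.27 and 8.96, with a difference of -0.67 (SE 0.22) and an adjusted p of 0.129. Orc2 differed by -0.18 (SE 0.18, adjusted p = 0.542). With scaling on the hybridization controls Orc1, Orc4 and Orc5 kept their signs and Orc2 turned above 0. The proteins that load the helicase onto the origin complex overlapped between the groups. Cdc6 differed by -0.41 (SE 0.27, adjusted p = 0.377) and dup, the fly Cdt1, by -0.23 (SE 0.24, adjusted p = 0.565), and the latter also turned above 0 with control scaling.

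The MCM genes, which encode the replicative helicase and its associated factor Mcm10, all had negative differences on the deposited scale (3 of 6 with control scaling), and none passed with or without the replicate block. Mcm5 read 10.23, 10.60 and 11.08 in wild type and 10.01, 9.87 and 10.03 in the mutants. Mcm2 read 10.56, 11.00 and 11.38 in wild type and 10.47, 10.18 and 10.32 in the mutants. In both genes the mutant arrays were close together and all below the lowest wild-type array, which was replicate 1. The differences were -0.67 (SE 0.21, adjusted p = 0.112) for Mcm5 and -0.66 (SE 0.21, adjusted p = 0.119) for Mcm2. The gene for the Mcm4 subunit, dpa, also had no overlap, with a difference of -0.32 (SE 0.12, adjusted p = 0.169). Mcm10 had the widest wild-type range of the 6, from 8.69 to 10.04, and a difference of -0.65 (SE 0.37, adjusted p = 0.319). Mcm6 differed by -0.28 (SE 0.24, adjusted p = 0.493) and Mcm3 by -0.03 (SE 0.18, adjusted p = 0.912). The median over the 6 genes was -0.48. With scaling on the hybridization controls dpa, Mcm3 and Mcm6 turned above 0, and the median was -0.10. By limma 3 of the 6 had an unadjusted p under 0.05, all lower, beside 12.9% of all probe sets that were lower at that p.

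PCNA, the sliding clamp that holds DNA polymerase on the template and a standard marker of replicating cells, fell in rib mutants. Its log2 level was 11.52, 11.74 and 12.33 in wild type and 11.05, 10.79 and 10.92 in the mutants. The highest mutant array lay 0.47 below the lowest wild-type array, and both belonged to replicate 1. The difference of -0.94 (SE 0.21, 95% interval -1.46 to -0.42) is a level 1.92-fold lower in the mutants, with an adjusted p of 0.0486, and 0.0395 with the replicate block. The call was near the threshold: over 14 other settings the adjusted p ran from 0.0145 to 0.180, and 8 of them kept the call. It was lost when wild-type replicate 2 was left out (adjusted p = 0.104) and when mutant replicate 1, 2 or 3 was (0.131, 0.180 and 0.154), while the difference stayed between -1.12 and -0.71. RnrL, the large subunit of ribonucleotide reductase, which makes the building blocks of DNA, read 10.14, 10.56 and 10.73 in wild type and 10.11, 10.44 and 10.51 in the mutants. These groups overlapped and differed by -0.12 (SE 0.19, adjusted p = 0.694, 95% interval -0.58 to 0.33).

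**Figure D2:**
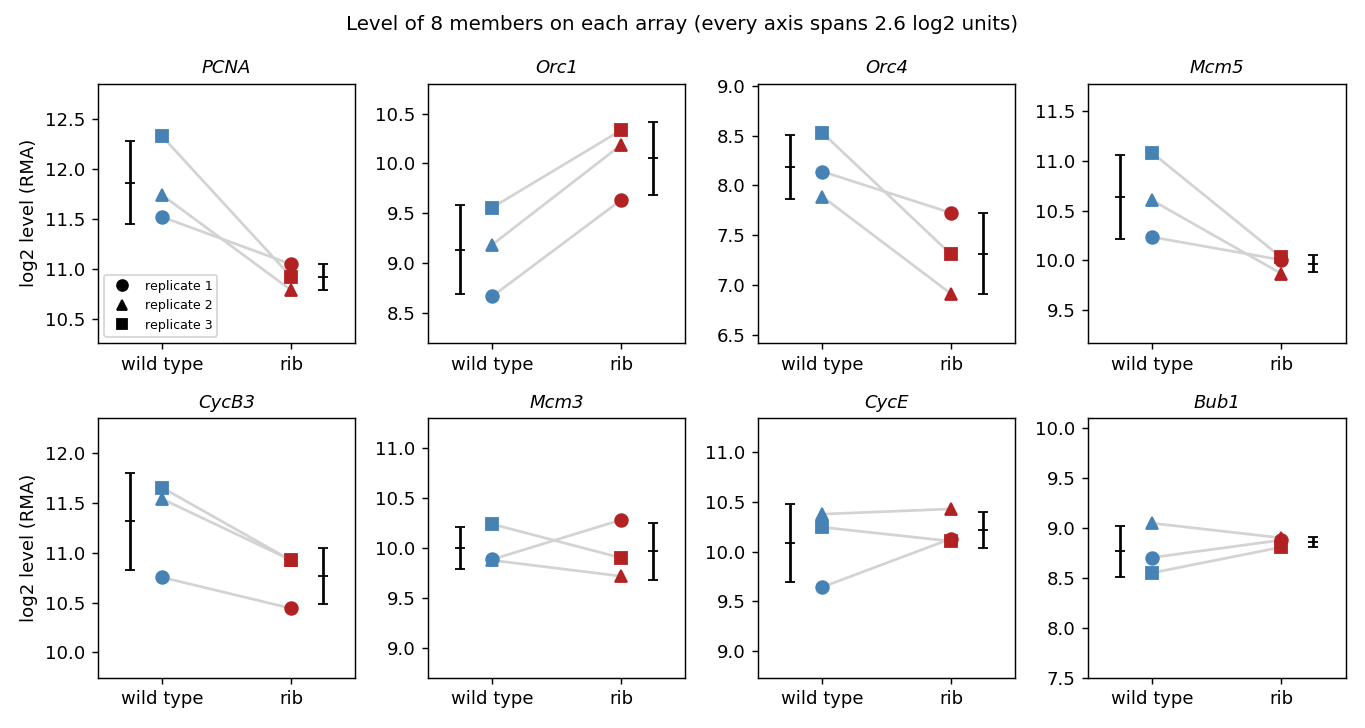
Log2 level (vertical axis) of PCNA, Orc1, Orc4, Mcm5, CycB3, Mcm3, CycE and Bub1 on each array, wild type in blue and rib mutant in red, with marker shapes and grey lines for the replicate number and black bars for the mean and SD (n = 3). PCNA, Orc1, Orc4 and Mcm5 show groups without overlap, while CycB3, Mcm3, CycE and Bub1 overlap.

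None of the 7 mitotic genes passed limma's adjusted threshold, with or without the replicate block, and 2 of them (28.6%) had an unadjusted p under 0.05, beside 25.5% of all probe sets. The kinase gene aurB, whose product Aurora B corrects chromosome attachment as part of the passenger complex, read 9.85, 10.43 and 10.93 in wild type and 9.65, 9.45 and 9.83 in the mutants. The gap between the groups was narrow, since the highest mutant array lay just under the lowest wild-type array, and the difference of -0.76 (SE 0.28) had an adjusted p of 0.153. The APC activator fzy, the fly Cdc20, read 10.97, 11.42 and 11.78 in wild type and 10.70, 10.74 and 10.87 in the mutants. All mutant arrays were below all wild-type arrays, and the difference was -0.62 (SE 0.21, adjusted p = 0.125). It is the one gene of the set with further probe sets, and these read near 4.5 and differed by -0.08 and -0.11. Its relative fzr, the fly Cdh1, which keeps the complex active in cells that leave the cycle, differed by 0.08 (SE 0.18, adjusted p = 0.790). Securin, encoded by pim, differed by -0.34 (SE 0.32, adjusted p = 0.526). The wild-type arrays of thr, whose product acts with separase to part sister chromatids, ran from 8.76 to 9.97 and the difference was -0.32 (SE 0.39, adjusted p = 0.628). The spindle checkpoint genes Bub1 and Bub3 overlapped between the groups, with differences of 0.09 (SE 0.14, adjusted p = 0.679) and -0.26 (SE 0.18, adjusted p = 0.405). With control scaling pim, thr and Bub3 turned above 0.

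**Figure D3:**
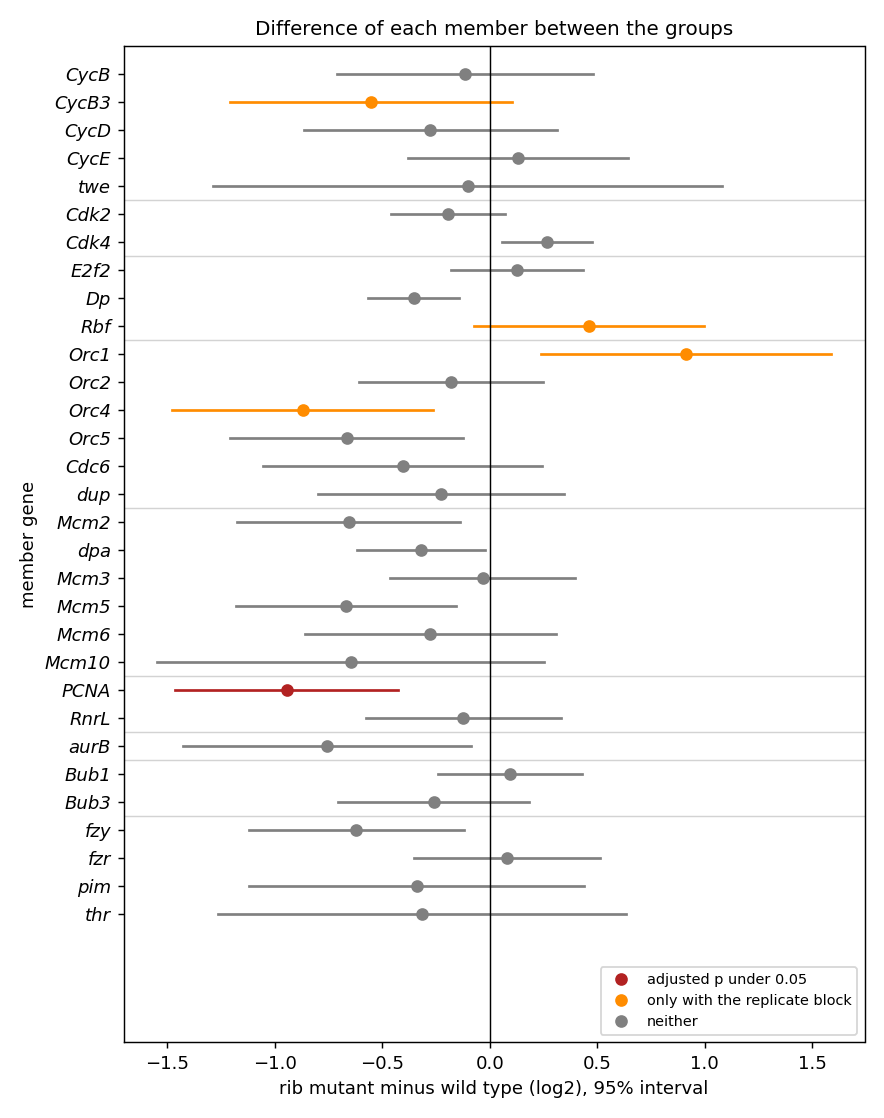
Difference between the groups (rib mutant minus wild type, log2, horizontal axis) for each of the 31 genes, with limma's 95% interval. PCNA passes the adjusted threshold, CycB3, Rbf, Orc1 and Orc4 pass with the replicate block and not without it, and 24 points lie left of 0 on the deposited scale (10 with scaling on the hybridization controls).

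Like most probe sets, the cell cycle genes varied more among wild-type than among mutant collections. The SD was larger in wild type for 29 of the 31 genes (93.5%), against 80.8% of all probe sets. Its median was 0.41 in wild type and 0.21 in the mutants, against 0.17 and 0.09 over all probe sets. In the marker lists described below, the SD was larger in wild type for 100.0% of the late muscle genes and 90.0% of the neuroblast genes. The larger wild-type spread is therefore not particular to the cell cycle genes. Wild-type replicate 1 was the lowest of its group for 24 genes (77.4%, against 48.8% of all probe sets), and wild-type replicate 3 the highest for 24 (77.4%, against 54.2%). The median difference between those 2 wild-type arrays, replicate 1 minus replicate 3, was -0.79, larger than the median difference between the groups. Taken over the 31 genes, the median deviation from a gene's mean was -0.18, 0.23 and 0.47 on the wild-type arrays and -0.22, -0.14 and -0.05 on the mutant arrays. By this pooled median wild-type replicate 1 sat among the mutant arrays, and its place differed by role. For the 14 licensing, MCM and fork genes it was at -0.09, above the mutant arrays at -0.22, -0.20 and -0.14. For the 7 mitotic genes it was at -0.18, among the mutant arrays at -0.37, -0.05 and -0.01. For the 10 others it was at -0.27, below the mutant arrays at -0.08, 0.10 and -0.03. All 31 genes had mean levels between 7.22 and 12.96, above the median of 5.55 over all probe sets.

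How many genes passed turned on wild-type replicate 1. Without that array 8 genes passed, all lower in the mutants: PCNA, CycB3, Dp, Mcm2, Mcm5, Mcm10, aurB and fzy. The share of all probe sets that passed then rose to 19.6%, and the share lower in the mutants from 3.32% to 8.86%. Without wild-type replicate 3 PCNA alone passed, beside 9.03% of all probe sets, and the median difference was -0.09. Leaving out wild-type replicate 2 or any mutant array left no gene past the limma threshold, with 3 to 8 genes at an unadjusted p under 0.05. The share of all probe sets at that unadjusted p is not given for these fits. At the adjusted threshold 4.75% of all probe sets passed without wild-type replicate 2. Without mutant replicates 1, 2 and 3 it was 3.31%, 3.21% and 3.23%.

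Markers of developmental age and of cell types differed between the same arrays. The marker lists were chosen with earlier results of these data known, so their shares only describe them. In the late muscle list 2 of 13 measured genes rose in the mutants (15.4%, beside 5.54% of all probe sets), Act87E and Zasp66. Zasp66 read 6.14, 4.74 and 4.74 in wild type, near or below the array median, so the size of its rise is uncertain. The list, of which 13 of 18 genes were measured, had a median difference of 1.02. Its median deviation was 1.07, -0.81 and -1.61 on the wild-type arrays and 0.60, 0.60 and 0.35 on the mutant arrays, so wild-type replicate 1 was high for muscle where it was low for the cell cycle genes. On a log2 scale the summed level of the muscle list was 11.53 to 13.78 in wild type and 13.56 to 13.62 in the mutants. In the neuron list 6 of 13 measured genes rose (46.2%, beside 5.54% of all probe sets), the 4 with the smallest p being Gad1, VAChT, ChAT and nSyb. The list had 9 differences above 0 and 4 below, those of VGlut, Rdl, para and futsch, of which none passed. The wild-type arrays of Gad1, VAChT and ChAT read 5.47 or less, below the array medians, so the size of those rises is uncertain. With the replicate block 8 genes of the list passed (61.5%, beside 9.0% of all probe sets that were higher), elav and fne being added (block adjusted p = 0.0387 and 0.0496). The summed level was 10.74 to 12.33 in wild type and 12.86 to 13.45 in the mutants. It rests mostly on elav and fne, the brightest genes of the list, which passed only with the block. Of the 16 late cuticle genes Cpr49Ag and Lcp9 rose (12.5%, beside 5.54% of all probe sets). The list had no common direction, with 8 genes above 0, 8 below and a median of 0.02. Its summed level was 10.52 to 12.50 in wild type and 11.68 to 11.85 in the mutants.

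Early zygotic genes, which are transcribed around cellularization, were mostly lower in the mutants, with 14 of 15 differences below 0 (11 of 15 with scaling on the hybridization controls). The 5 that fell (33.3%, beside 3.32% of all probe sets) were SNCF, halo, gt, bnk and Sry-alpha. For SNCF the wild-type arrays read 9.01 to 9.24 and the mutant arrays 5.42 to 5.75. For halo the wild-type arrays read 8.32 to 9.60 and the lowest mutant array 5.43. These mutant levels lie near the array median, where signal may be mostly background, so the size of both falls is uncertain. With the replicate block 8 passed (53.3%, beside 5.63% of all probe sets that were lower), slam, hb and kni being added (block adjusted p = 0.0457, 0.0343 and 0.0492). Their summed level was 12.11 to 12.57 in wild type and 11.60 to 11.74 in the mutants. The summed level of the 31 cell cycle genes was 15.20 to 15.94 in wild type and 15.19 to 15.40 in the mutants, so it overlapped between the groups. Of the 10 measured germline and maternal genes osk fell, and swa also passed with the replicate block (adjusted p = 0.0349), while 5 genes lay above 0 and 5 below, with a median of -0.08. That list's summed level was 12.32 to 13.32 in wild type and 12.50 to 13.18 in the mutants. The 3' minus 5' signal of the control genes, a sign of RNA quality, was 1.20 to 1.72 in wild type and 1.60 to 1.70 in the mutants for GAPDH and 1.51 to 1.93 and 1.49 to 1.67 for actin, with wild-type replicate 1 the highest for both. The part of these markers and controls in the cell cycle differences was not tested.

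Neuroblasts are the dividing stem cells of the nervous system. None of the 10 measured neuroblast genes passed in limma with or without the replicate block, l(1)sc alone had an unadjusted p under 0.05, and the median difference was -0.00. The defining markers ase, dpn, mira and wor differed by -0.14, 0.34, -0.04 and -0.31, with adjusted p-values of 0.550, 0.210, 0.815 and 0.348. The proneural gene l(1)sc had the smallest p of the list, reading 8.32, 9.60 and 10.07 in wild type and 8.46, 7.89 and 8.06 in the mutants (difference -1.19, SE 0.45, adjusted p = 0.163). The summed level of the list was 12.87 to 13.32 in wild type and 12.93 to 13.10 in the mutants.

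**Figure D4:**
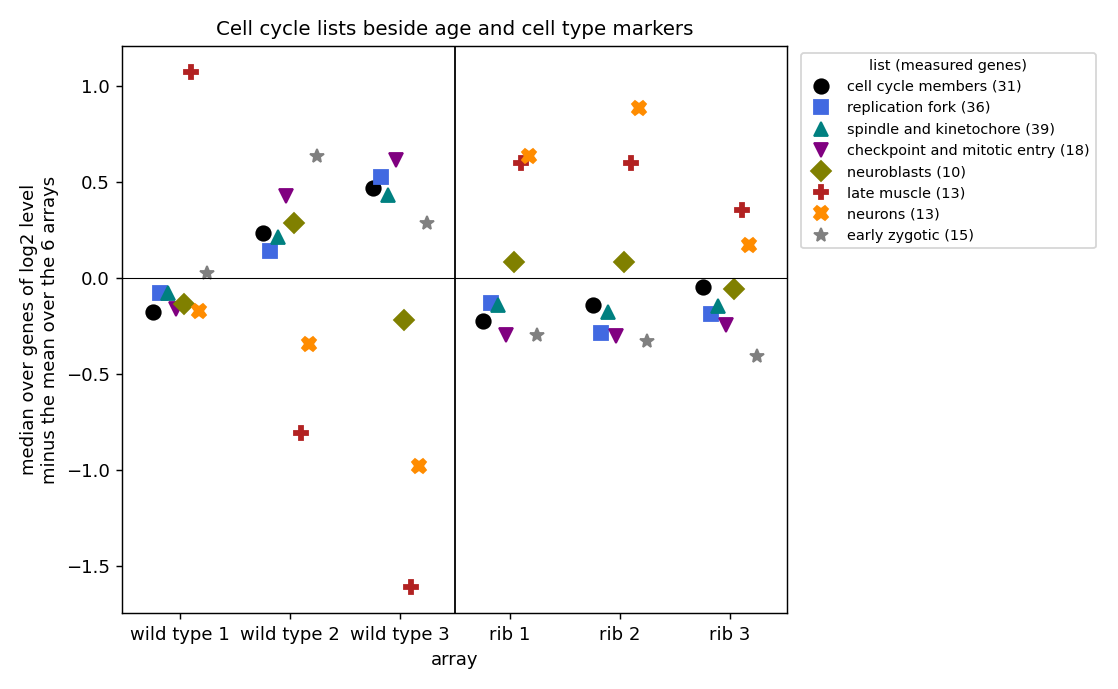
Median over the genes of each list of the log2 level minus the gene's mean over the 6 arrays (vertical axis), for each array (horizontal axis). The cell cycle and replication lists are low on wild-type replicate 1 and high on replicate 3, the late muscle list runs from 1.07 to -1.61 over the same arrays, and the neuroblast list shows no such order.

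Other genes of the same pathways were counted in 6 lists, of which 135 of 159 genes were measured. By the main test 17 of them passed (12.6%, beside 8.87% of all probe sets), 2 higher and 15 lower in the mutants. The lower ones are 11.1% of the genes, beside 3.32% of all probe sets. All probe sets include many dim ones. When the dimmest 40% were left out and the test was rerun, 14.1% of the rest passed and 5.14% were lower. With the replicate block 34 passed (25.2%, beside 14.6% of all probe sets), 6 higher and 28 lower, where all probe sets gave 9.0% and 5.63%. These counts also hung on single arrays. Past the threshold were 50 genes without wild-type replicate 1, 14 without replicate 3 and 4 without replicate 2. Without mutant replicates 1, 2 and 3 there were 0, 0 and 1, where 40, 33 and 46 genes had an unadjusted limma p under 0.05. The share of all probe sets at that unadjusted p is not given for the fits without single arrays.

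At the replication fork 5 of 36 measured genes fell (13.9%, beside 3.32% of all probe sets) and none rose without the block. With the block 8 were lower and 1 higher (25.0%, beside 14.6% of all probe sets). It added PolE4, PolA2 and RfC38 on the lower side (block adjusted p = 0.0202, 0.0474 and 0.0339). On the higher side it added RfC3, a clamp loader subunit (difference 0.64, block adjusted p = 0.0344). The median difference of the list was -0.34, or 0.04 with scaling on the hybridization controls. Psf1, a subunit of the GINS complex that activates the MCM helicase, read 8.22, 9.12 and 9.50 in wild type and 7.30, 7.07 and 7.32 in the mutants. RPA2, a subunit of the protein that coats single-stranded DNA, read 10.55, 10.83 and 11.56 in wild type and 9.66, 9.06 and 9.41 in the mutants. The groups stood well apart in both genes, with differences of -1.72 (SE 0.32, 3.29-fold lower, adjusted p = 0.0267) and -1.60 (SE 0.29, 3.04-fold lower, adjusted p = 0.0237). PolD2, an accessory subunit of the lagging-strand polymerase, fell by 1.07 (SE 0.20, adjusted p = 0.0261), and RPA1, the large partner of RPA2, by 0.61 (SE 0.13, adjusted p = 0.0390). The remaining one was Ctf4, which ties the helicase to DNA polymerase alpha, and it fell by 0.94 (SE 0.21, adjusted p = 0.0469).

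Within GINS the other subunits, named after their values were seen, did not pass: Psf2 differed by -0.91 (adjusted p = 0.126), Sld5 by -0.64 (adjusted p = 0.222) and Psf3 by -0.32 (adjusted p = 0.310). Cdc45, which completes the active helicase with MCM and GINS, differed by -0.04 (adjusted p = 0.860), and it turned above 0 with scaling on the hybridization controls, as did Psf3.

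Among 39 measured spindle and kinetochore genes 3 fell and none rose without the block. These calls are 7.69% of the list, beside 8.87% of all probe sets (3.32% lower). Klp67A, a kinesin that limits spindle length, fell by 0.75 (SE 0.14, adjusted p = 0.0290), and spd-2, which builds the material around centrosomes, by 0.92 (SE 0.19, adjusted p = 0.0343). Zwilch, part of the complex that brings dynein to kinetochores, read 8.20, 8.76 and 9.24 in wild type and 7.61, 7.36 and 7.55 in the mutants, a difference of -1.23 (SE 0.26, adjusted p = 0.0394) with no overlap. With the replicate block 13 of these genes passed (33.3%, beside 14.6% of all probe sets), 12 of them lower and msps higher. The median over the list was -0.32, or 0.06 with scaling on the hybridization controls.

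The checkpoint and mitotic entry list held the highest share of calls among the 6. Of its 18 measured genes 7 passed (38.9%, beside 8.87% of all probe sets), 2 higher and 5 lower. With the block 9 passed (50.0%, beside 14.6% of all probe sets), 3 higher and 6 lower. Besides gwl, the block added mus304 on the lower side (adjusted p = 0.0425) and Cks85A on the higher (0.0405). The largest fall was that of gnu, an activator of the Pan gu kinase that promotes translation of maternal cyclin B in the first embryonic cycles. It read 7.32, 7.63 and 8.32 in wild type and 5.66, 6.12 and 6.04 in the mutants, a difference of -1.81 (SE 0.27, 3.52-fold lower, adjusted p = 0.0133), whose size is uncertain because the mutant levels are near the array median. The kinase gene png fell by 0.52 (SE 0.09, adjusted p = 0.0238) at levels of 5.24 to 5.95, near the array median. Their partner plu ran from 8.01 to 10.33 in wild type alone and differed by -0.16 (SE 0.63, adjusted p = 0.884). Cks30A, a small partner of Cdk1, read 10.11, 10.60 and 10.95 in wild type and 9.19, 9.02 and 9.25 in the mutants. Every mutant array was below every wild-type array, by 1.40 on average (SE 0.21, adjusted p = 0.0141).

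The genes of the Greatwall pathway, in which the kinase Greatwall acts through Endos to switch off the phosphatase PP2A with its B55 subunit Tws at mitotic entry, went in different directions. The B55 gene tws read 8.28, 8.97 and 8.93 in wild type and 10.12, 10.24 and 9.96 in the mutants, a rise of 1.38 (SE 0.20, 2.61-fold, adjusted p = 0.0127) with no overlap. The inhibitor gene endos rose by 0.51 (SE 0.08, adjusted p = 0.0169). The kinase gene gwl read 8.94, 10.11 and 10.17 in wild type and 8.04, 8.58 and 8.57 in the mutants, also without overlap. Its difference of -1.34 (SE 0.36) had an adjusted p of 0.0754, and 0.0130 with the replicate block. The other calls of the list were CycH, which activates Cdk7, lower by 0.87 (SE 0.19, adjusted p = 0.0446), and Claspin, an adaptor of the replication checkpoint, lower by 0.59 (SE 0.13, adjusted p = 0.0484, and 0.0518 with the block). The genes png, plu, gwl, CycH and Claspin, and those the block added to the lists, were named after their values were seen.

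**Figure D5:**
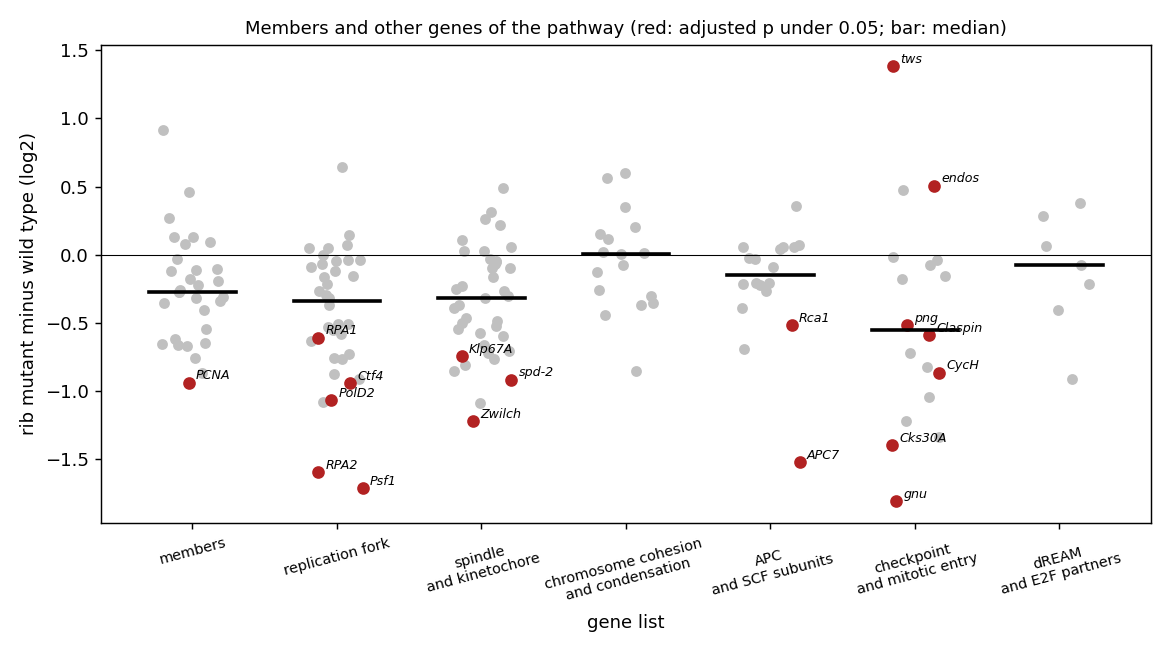
Difference between the groups (rib mutant minus wild type, log2, vertical axis) for the 31 genes and for the 6 lists of other pathway genes (horizontal axis), with genes past the adjusted threshold in red and the median as a bar. The calls lie mostly below 0 in the replication fork, spindle, APC and checkpoint lists, and tws and endos lie above it.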

How the data were processed

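The deposited values are log2 levels, 1 per probe set and array. Per the submitters' processing notes they come from RMA and Partek, whose versions are not stated. RMA gives every array the same distribution, so a shift common to most transcripts would not be seen, and differences near background are compressed. Of 18952 probe sets, 183 controls were left out of the tests. Gene symbols came from the platform annotation, in which 13647 tested probe sets had 1 symbol, 402 several and 4720 are unnamed here. The gene identifiers of all 31 genes led to the same symbol in the RefSeq table of assembly Release 6 plus ISO1 MT. Probe sets of CycD, CycE, Cdk2, Cdk4, fzr, tws, endos, Act87E and Gad1 carry the suffix _s_at, of designs that can match several transcripts. Among the 31 genes, those of CycB, Dp and thr carry the suffix _a_at, which can also match several transcripts.

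The groups' means were tested two-sided by moderated linear models (limma 3.58.1, R 4.3.3). The code was also run on simulated data with independent arrays and the same spread in both groups. These data differ from that setting in both respects, so that run does not cover their calls. The precision is set by 3 arrays per group, and an exact permutation test of 3 against 3 could not reach the threshold. The design text calls the collections independent. Arrays of one replicate number deviated together (correlations of deviations over probe sets 0.37, 0.57 and 0.39, against -0.33 to -0.14 for unlike numbers). The main fit left this pairing out. Another fit, with the number as a block, is given beside each list it changes. The pairing was inferred from these same data. Genes given in full were those called with or without the block, the 2 of smallest p in each role group, and up to 4 called genes of each other list or its gene of smallest p. The members and all lists were chosen with earlier results of these data known. No scan or hybridisation batch was known, so none was tested.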

Additional observations from a re-analysis of the deposited data

How the results depend on the processing

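The count over all probe sets (1664) became 594 with a plain two-sample test after adjustment, 2745 with the replicate block, 3202 with scaling on the hybridization controls (2917 higher and 285 lower, against 1040 and 624) and 603 to 3674 when single arrays were left out. The count of cell cycle genes (1) became 2 with cyclic loess (Dp and PCNA), 0 with median centring, 0 with the plain test, 5 with the block, 3 with control scaling (Cdk4, Orc1 and PCNA), 2 with the plain test at the submitters' rule (Orc4 and PCNA) and 0 to 8 without single arrays. Where limma after median centring and the plain test called none, 11 and 4 genes had an unadjusted p under 0.05. The share of all probe sets at that unadjusted p is not given for these settings. The count in the related lists (17) became 1 with the plain test, 34 with the block and 0 to 50 without single arrays. Apart from CycB3, Orc1, Orc4 and Rbf, the block changed no call among the 31 genes. Their median difference (-0.28) became 0.10 with control scaling and ran from -0.46 to -0.09 without single arrays.

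The sign of a difference turned 26 times among 434 recomputed values of the 31 genes, none of them called. Control scaling gave 0.027 for Dp, 0.039 for pim, 0.058 for dpa, 0.064 for thr, 0.10 for CycD, 0.10 for Mcm6, 0.12 for Bub3, 0.15 for dup, 0.18 for Cdk2, 0.20 for Orc2, 0.26 for RnrL, 0.26 for CycB, 0.28 for twe and 0.35 for Mcm3, as its construction adds 0.38 to every difference. Without single arrays the sign turned for CycB (-0.37 to 0.039), CycE (-0.090 to 0.28), twe (-0.59 to 0.29), Mcm3 (-0.19 to 0.091), RnrL (-0.29 to 0.0062), Bub1 (-0.014 to 0.24) and fzr (-0.083 to 0.20). The cause of the changes with single arrays was not tested. Levels near the array median, as for png and vas, may hold mostly background.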

Other observations

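The remaining pathway lists held few calls. Of 18 measured genes of the APC and SCF ubiquitin ligases, APC7, a scaffold subunit of the anaphase-promoting complex, fell (adjusted p = 0.0366) and Rca1, which restrains that complex before mitosis, fell by 0.52 (SE 0.12, adjusted p = 0.0493, and 0.0515 with the replicate block), in limma's fit over all probe sets. The mutant arrays of APC7 read 4.18 to 4.48, below the array median, against 5.20 to 6.47 in wild type. Such low signal may be mostly background, so no size is given for that fall. The calls of this list are 11.1% of its genes, beside 8.87% of all probe sets (3.32% lower). None of the 17 measured cohesion and condensation genes passed, where 4 had an unadjusted limma p under 0.05 (23.5%, beside 25.5% of all probe sets). Cap-H2, a condensin II subunit, passed with the replicate block (difference 0.56, adjusted p = 0.0221). The median difference of the list was 0.01. The smallest p of that list belonged to dmt (difference -0.44, adjusted p = 0.0663). None of the 7 measured dREAM and E2F partner genes passed, where 3 had an unadjusted limma p under 0.05 (42.9%, beside 25.5% of all probe sets). In that list Rbf2, the second fly Rb protein, read 8.03, 8.83 and 9.09 in wild type and 7.58, 7.75 and 7.87 in the mutants, with an adjusted p of 0.0967 and 0.0336 with the replicate block.

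Ctps, which makes CTP for nucleic acid synthesis, had probe sets that disagreed, and it was singled out after its values were seen. Its brightest probe set differed by 0.05 (adjusted p = 0.840), while another rose by 1.62, from a mean of 7.36 in wild type to 8.99 in the mutants (adjusted p = 0.000257, limma).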
